A study of Homo sapiens with 12 samples.

Results

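The genes described here are 42 interferon response genes, a list of transcription factors, sensors and effectors that cells switch on after interferon. They were measured in CHRF288-11, an established human megakaryoblastic leukaemia cell line. A gene was counted as detected when a probe with its symbol, or an older symbol of it, had a detection score above 0.99 on at least 3 of the 12 arrays, and the brightest such probe stood for the gene. Of the 42 listed genes, 41 were detected, each on all 12 arrays, out of 11057 genes tested. SAMHD1, which depletes the nucleotides that viruses need, was detected on 0 arrays, with a mean signal of 70.8 and a highest detection score of 0.891. The dimmest genes kept were USP18, with a mean signal of 112, and IFIT5, with a mean signal of 134.

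All cells were kept without serum for 16 h, and RNA was collected at 8 h. The 4 groups were untreated cells, cells given recombinant Wnt3a at 150 ng/mL, cells given recombinant Wnt5a at 1200 ng/mL, and cells given both proteins at these doses (Wnt3a+Wnt5a). Each group had 3 arrays, which the series calls biological replicates, so the p-values measure the spread between arrays of 1 cell line. Each protein was given at 1 dose, the doses differ, and the groups analysed here hold no vehicle control. The question put by the design is which genes respond to either ligand or to both.

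Interferons bind receptors whose JAK kinases activate transcription factors. STAT2 and IRF9 are parts of ISGF3, the complex that binds the interferon-stimulated response element (ISRE) in promoters, and the gamma-activated site (GAS) is the element known from the interferon gamma response. The induced proteins sense viral RNA, block its translation, degrade it or hold virus at membranes, and many cells keep a low level of them without infection. Wnt3a is the usual ligand of the beta-catenin branch of Wnt signalling, which acts through TCF/LEF factors. Wnt5a is the usual ligand of the branches that do not use beta-catenin, through ROR and Frizzled receptors and calcium.

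Promoters are shown first because the ISRE was found in most of the listed genes that have a promoter window. RefSeq promoter windows (GRCh38.p14, 250 bases before to 50 after a transcript start) were matched to 33 of the 42 genes. The ISRE core, searched as GAAANNGAAA on both strands, was found in 23 of these 33 genes (69.7%) and in 4.38% of the 27305 genes with a window. The GAS letters TTCNNNGAA were found in 11 of the 33 genes (33.3%), against 9.38% of all genes. The TCF/LEF letters CTTTGAT were found in 1 of them, TAP1 (3.03%), against 3.18% of all genes. The spellings were searched separately, so matches of both can share letters. In IFI27 a GAS match lay across 2 ISRE matches, and in IFITM1, BST2 and MX1 a GAS match overlapped an ISRE match. A match describes letters in a window and does not show that a factor binds there.

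The sequences of 6 genes follow, 5′ to 3′ on the strand of the gene, with each ISRE match in capitals. They are the genes that passed a test below (IFIT3, IFIT5, EIF2AK2 and XAF1), with IFIT1 and ISG15 beside them as stretches around their matches. IFIT3 (chr10:89327747-89328046, + strand), IFIT1 (chr10:89392497-89392539, + strand) and IFIT5 (chr10:89414318-89414617, + strand) lie near each other on chromosome 10. EIF2AK2 is given at chr2:37156931-37157230 on the − strand, XAF1 at chr17:6755796-6756095 on the + strand and ISG15 at chr1:1013374-1013409 on the + strand. IFIT5 held 3 matches, IFIT3, IFIT1 and ISG15 held 2 each, EIF2AK2 held 1, and XAF1 held 0 of this spelling. IFIT3 and XAF1 each have 2 windows, of which the first is shown. In ISG15 the 2 matches overlap, so that they appear as 1 run of capitals.
IFIT3: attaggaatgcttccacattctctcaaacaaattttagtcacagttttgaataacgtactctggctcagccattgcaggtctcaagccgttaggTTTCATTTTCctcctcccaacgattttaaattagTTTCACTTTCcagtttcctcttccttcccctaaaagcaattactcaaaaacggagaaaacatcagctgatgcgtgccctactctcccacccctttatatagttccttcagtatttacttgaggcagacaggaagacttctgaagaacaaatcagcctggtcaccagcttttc
IFIT1: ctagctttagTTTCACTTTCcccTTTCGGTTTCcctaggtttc
IFIT5: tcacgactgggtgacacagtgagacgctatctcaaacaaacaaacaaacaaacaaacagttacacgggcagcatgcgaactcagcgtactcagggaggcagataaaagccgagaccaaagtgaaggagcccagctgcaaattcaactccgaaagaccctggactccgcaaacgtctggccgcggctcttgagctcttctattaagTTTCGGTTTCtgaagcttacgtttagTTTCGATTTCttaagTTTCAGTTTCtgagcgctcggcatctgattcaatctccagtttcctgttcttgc
EIF2AK2: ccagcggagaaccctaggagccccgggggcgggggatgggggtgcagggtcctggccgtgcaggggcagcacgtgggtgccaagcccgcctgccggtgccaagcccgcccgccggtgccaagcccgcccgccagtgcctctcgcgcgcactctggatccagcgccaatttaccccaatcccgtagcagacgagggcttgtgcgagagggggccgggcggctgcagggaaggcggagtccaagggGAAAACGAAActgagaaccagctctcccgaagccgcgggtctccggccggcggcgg
XAF1: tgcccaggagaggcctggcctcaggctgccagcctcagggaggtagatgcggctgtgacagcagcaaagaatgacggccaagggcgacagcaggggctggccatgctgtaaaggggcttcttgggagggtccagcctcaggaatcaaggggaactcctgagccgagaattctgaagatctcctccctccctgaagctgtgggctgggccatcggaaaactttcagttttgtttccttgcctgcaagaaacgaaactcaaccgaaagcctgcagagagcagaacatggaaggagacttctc
ISG15: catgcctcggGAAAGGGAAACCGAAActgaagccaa

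**Figure D1:**
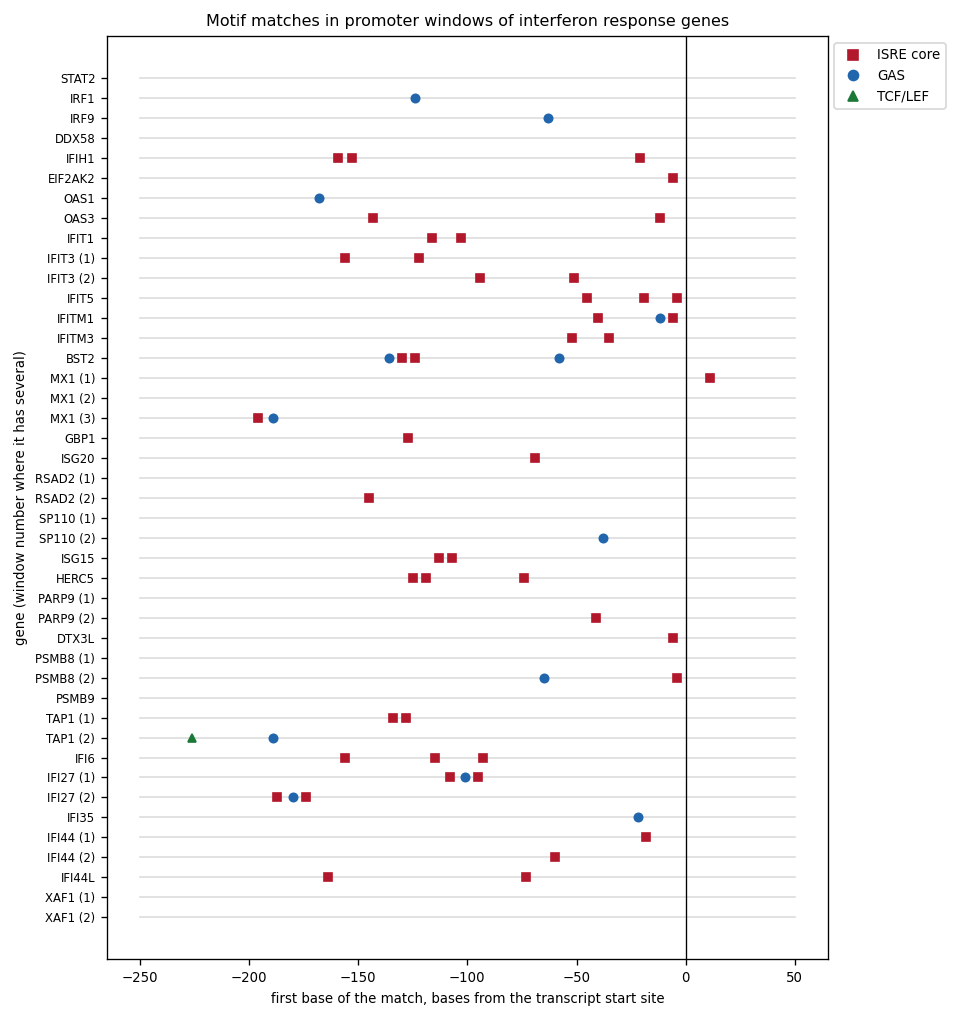
Each row is a RefSeq promoter window of an interferon response gene, and each point marks the first base of an ISRE core, GAS or TCF/LEF match, in bases from the transcript start (0). The ISRE matches of 23 genes are spread over the window, and the 3 matches of IFIT5 begin at -45, -19 and -4.

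The arrays lay on 2 BeadChips of 6. Chip 1 carried Untreated 2 and 3, Wnt3a 2 and 3, and Wnt5a 1 and 3, and chip 2 carried Untreated 1, Wnt3a 1, Wnt5a 2 and all 3 Wnt3a+Wnt5a arrays. Arrays of chip 1 had mean signals of 364 to 378 and those of chip 2 of 312 to 347. Each array detected 12511 to 14088 of its 48803 probes. Levels below are normalized log2 signals, and differences are log2 differences between group means with the chip as a term in the fit. A gene was said to rise or fall when its limma p, adjusted by Benjamini-Hochberg over the 14051 probes tested, was under 0.05. The number of arrays, 3 in a group, limits the precision. In bulk RNA, fewer cells that express a gene and less RNA per cell cannot be told apart.

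A small set of interferon response genes rose with Wnt5a, alone or with Wnt3a, by about 1.3-fold, and most of the 41 detected genes did not pass a test in any comparison. With Wnt5a alone, IFIT3 and IFIT5, of the IFIT family, rose. With both ligands, IFIT3, IFIT5, the RNA-activated kinase EIF2AK2 and the pro-apoptotic gene XAF1 rose. With Wnt3a alone none passed. No listed gene fell against untreated cells in the main values. In the authors' log2 table GBP1 was called lower with Wnt5a, and LY6E and PSMB9 with both ligands. LY6E was also called lower with both ligands without background correction, with an offset of 50, with a trended robust variance prior, and without Wnt5a 2 or Wnt3a+Wnt5a 2.

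Counts and medians put this in proportion. Against untreated cells, Wnt3a gave 0 of 41 called genes in the limma test, where 1.52% of all tested probes were called in either direction. At an unadjusted p under 0.05, Wnt3a gave 2 genes higher and 0 lower, where 12.1% of all probes passed. Their median difference was 0.07, with 31 of 41 above 0, against 0.00 over all 11057 genes. Wnt5a gave 2 genes higher and 0 lower, 4.88% of the 41, where 2.92% of all probes were higher and 5.25% were called in either direction. The median difference with Wnt5a was 0.09, with 30 of 41 above 0. The combination gave 4 genes higher and 0 lower, 9.76% of the 41, where 4.45% of all probes were higher and 7.77% were called in either direction. Its median difference was 0.01, with 21 of 41 above 0. That median was 0.0782 without the chip term or with the replicate block in its place, and ran from -0.0685 (without Untreated 1) to 0.0549 (without Wnt3a 1) with 1 array left out. A single gene is 2.44% of the 41, so these shares differ from the background by few genes. Of the other tested probes of the listed genes, 0 were called in any comparison. Among genes with a promoter window, the 23 with an ISRE match had a median difference of 0.11 with Wnt5a and -0.02 with both ligands, and the 9 detected without one had 0.09 and 0.11. The comparisons share the 3 untreated arrays, and their values are given side by side for that reason only.

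**Figure D2:**
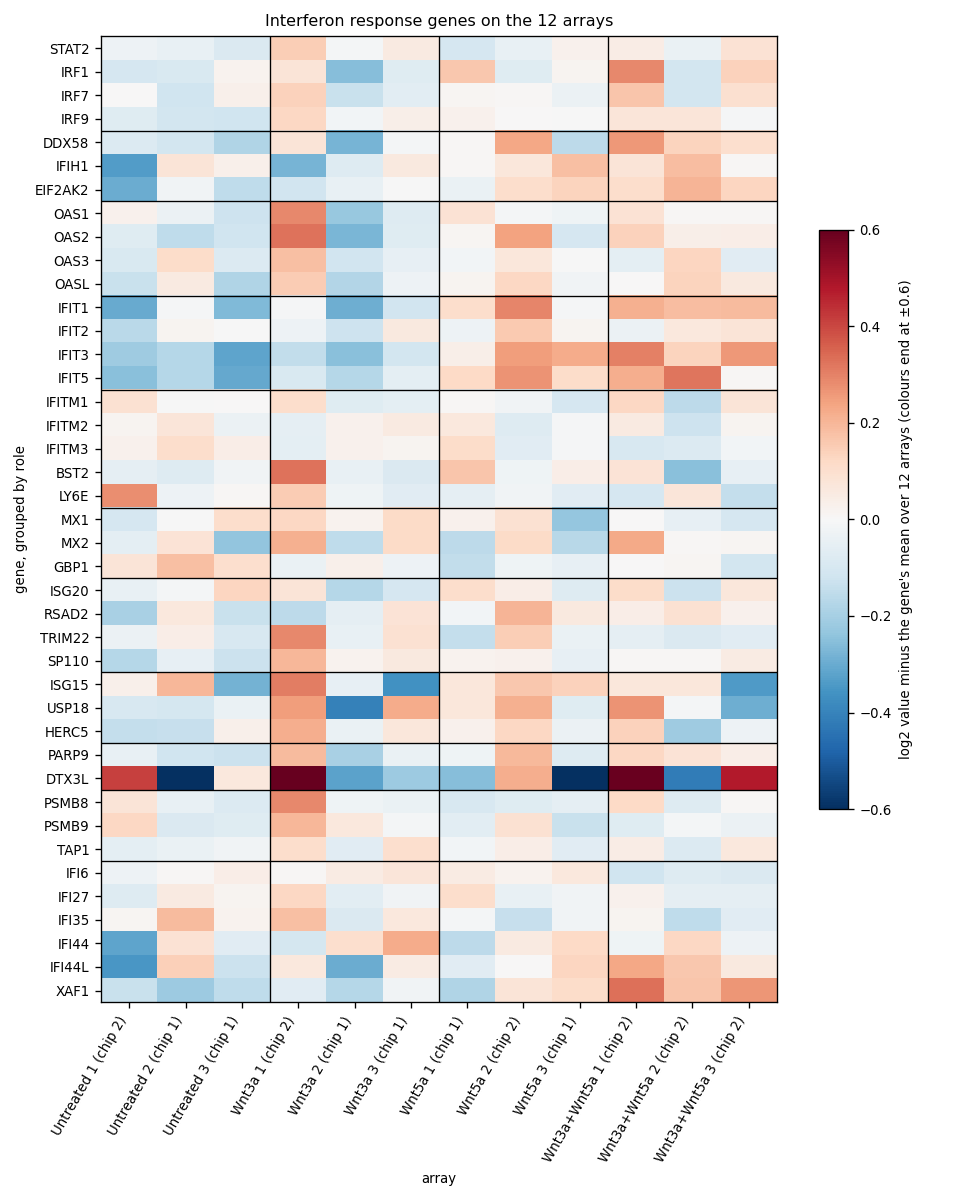
Each row is 1 of the 41 detected interferon response genes, grouped by role, and each column 1 of the 12 arrays with its chip; colour gives the log2 signal minus the gene's mean over the 12 arrays, drawn from -0.6 to 0.6. The IFIT3 and IFIT5 rows are above their mean on all 6 arrays that had Wnt5a. The DTX3L row varies more than any other row without following the groups. It is highest on the chip 2 array within the untreated, Wnt3a and Wnt5a groups.

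**Figure D3:**
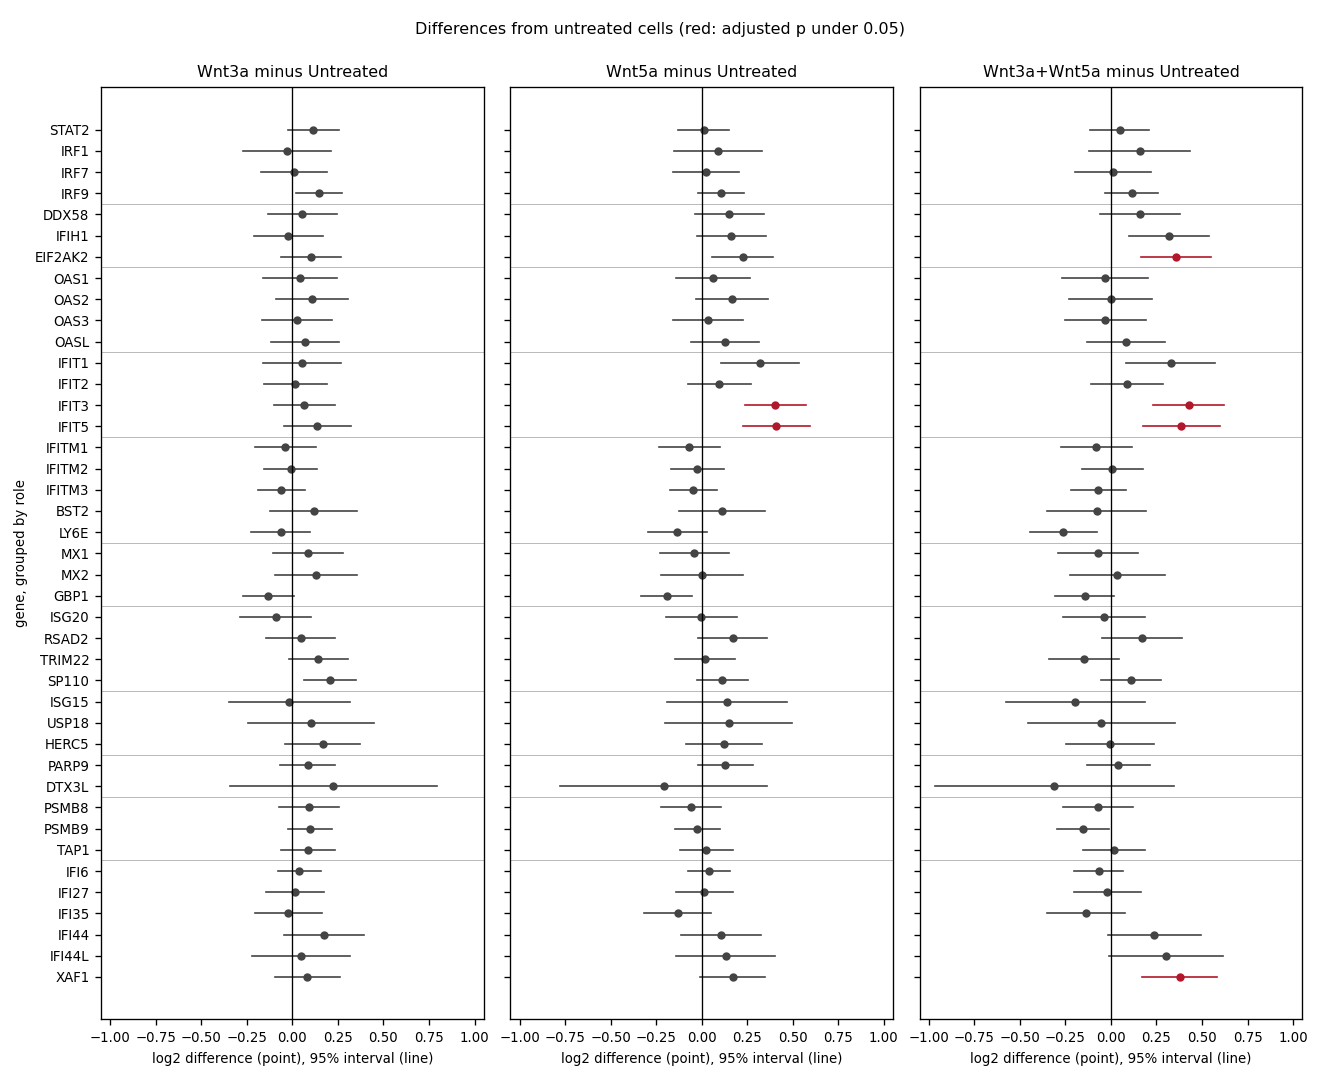
Points are log2 differences from untreated cells for the 41 genes, with lines for the 95% interval of the limma fit, in 1 panel per treated group (3 arrays each). Red marks an adjusted p under 0.05, which holds for 0 genes with Wnt3a, for IFIT3 and IFIT5 with Wnt5a, and for EIF2AK2, IFIT3, IFIT5 and XAF1 with both ligands.

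The IFIT genes encode tetratricopeptide proteins, some of which bind the ends of viral RNA and block its translation. On the arrays numbered 1 to 3 in each group, IFIT3 read 9.77, 9.81 and 9.67 in untreated cells, 9.84, 9.73 and 9.88 with Wnt3a, 10.02, 10.24 and 10.21 with Wnt5a, and 10.29, 10.12 and 10.24 with both. The 6 arrays with Wnt5a were all higher than the 6 without it, while Wnt5a alone overlapped both ligands and untreated cells overlapped Wnt3a. IFIT3 rose by 0.41 with Wnt5a (1.32-fold; SE 0.08; 95% interval 0.24 to 0.57; limma adjusted p 0.00884). Within the chips this difference was 0.37 on chip 1 and 0.47 on chip 2. With both ligands IFIT3 rose by 0.43 (1.34-fold; SE 0.09; 95% interval 0.23 to 0.62; limma adjusted p 0.0135). With Wnt3a alone its difference was 0.07 (95% interval -0.10 to 0.23; limma adjusted p 0.815).

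Other probes for the same transcript gave smaller values for IFIT3. The other 2 tested probes differed by 0.28 and 0.20 with Wnt5a (limma adjusted p 0.0796 and 0.317) and by 0.29 and 0.32 with both ligands (limma adjusted p 0.0908 and 0.117). The direction was the same on all 3 probes, and only the brightest passed. The call with Wnt5a was lost without Untreated 1 (adjusted p 0.0546), Wnt5a 2 (0.0534) or Wnt5a 3 (0.0544), all in limma refits. The call with both ligands was lost without Untreated 1 (limma adjusted p 0.148), after which no untreated array remained on chip 2.

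IFIT5 is an IFIT family member that binds RNA with 5′ phosphates. It read 6.07, 6.15 and 6.01 in untreated cells, 6.23, 6.15 and 6.26 with Wnt3a, 6.44, 6.59 and 6.43 with Wnt5a, and 6.53, 6.64 and 6.33 with both. All 6 arrays with Wnt5a were above all 6 without it. IFIT5 rose by 0.41 with Wnt5a (1.33-fold; 95% interval 0.23 to 0.59; limma adjusted p 0.0138), by 0.35 within chip 1 and 0.52 within chip 2. It rose by 0.39 with both ligands (1.31-fold; 95% interval 0.18 to 0.60; limma adjusted p 0.0322). IFIT5 is near background, and in the authors' log2 table the same differences were 0.13 and 0.12. In that table the second missed the threshold (limma adjusted p 0.0804).

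The IFIT5 calls depended on single arrays. With Wnt5a the call was lost in limma refits without Untreated 1 (adjusted p 0.086), Untreated 3 (0.0567) or Wnt5a 2 (0.0852). With both ligands it was lost in limma refits without Untreated 1 (adjusted p 0.274), Untreated 3 (0.0622), Wnt3a 1 (0.0702), Wnt3a 3 (0.0517), Wnt3a+Wnt5a 1 (0.0739) or Wnt3a+Wnt5a 2 (0.0821).

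IFIT1 recognises RNA that lacks the cap methylation of the host. It read 10.85, 11.15 and 10.89 in untreated cells, 11.15, 10.87 and 11.04 with Wnt3a, 11.26, 11.45 and 11.15 with Wnt5a, and 11.37, 11.34 and 11.35 with both. The Wnt5a arrays met the untreated range at 11.15, and the arrays with both ligands lay above it. Its differences were 0.32 with Wnt5a (95% interval 0.11 to 0.54; limma adjusted p 0.0858) and 0.33 with both (limma adjusted p 0.106), and neither passed. The Wnt5a difference was 0.18 within chip 1 and 0.60 within chip 2. A second, dimmer probe for IFIT1 gave 0.09 with Wnt5a and -0.11 with both ligands, so the probes disagree. IFIT2, the fourth gene of the family on the list, lay between 10.63 and 10.95 on the 12 arrays and differed by 0.10 with Wnt5a and 0.09 with both (limma adjusted p 0.603 and 0.634).

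**Figure D4:**
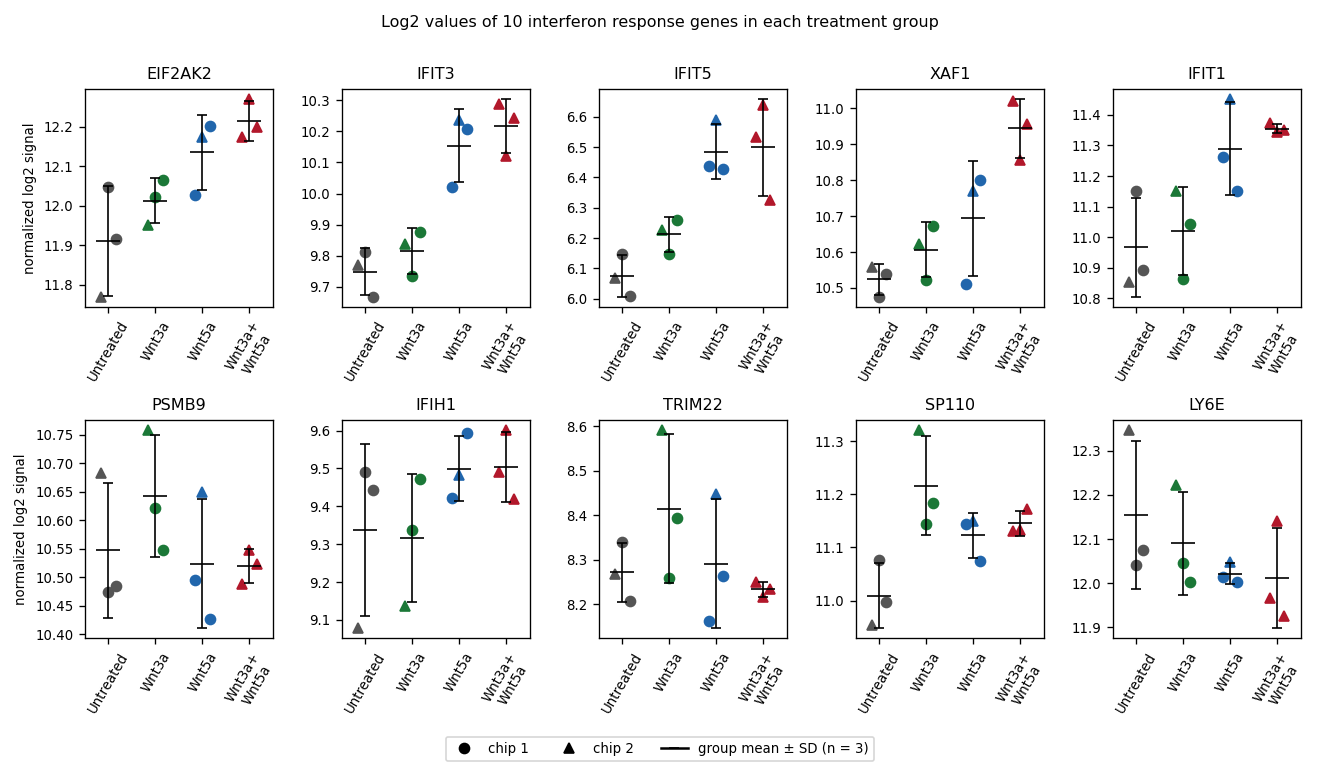
Normalized log2 signal of 10 interferon response genes, 1 panel per gene, by treatment group; points are single arrays coloured by group, circles for chip 1 and triangles for chip 2, and the black bar with whiskers is the mean and SD of 3 arrays. IFIT3 and IFIT5 separate the groups with Wnt5a from those without, the means of EIF2AK2 and XAF1 are highest with both ligands, and LY6E has 1 high untreated array at 12.35.

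Cytosolic RNA sensors also held a called gene. EIF2AK2 encodes PKR, a kinase that double-stranded RNA activates and that halts translation by phosphorylating eIF2alpha. It read 11.77, 12.05 and 11.91 in untreated cells, 11.95, 12.02 and 12.07 with Wnt3a, 12.03, 12.17 and 12.20 with Wnt5a, and 12.17, 12.27 and 12.20 with both. The 3 arrays with both ligands lay above the untreated arrays, while the single-ligand groups overlapped them. EIF2AK2 rose by 0.36 with both ligands (1.28-fold; 95% interval 0.17 to 0.55; limma adjusted p 0.0291). With Wnt5a alone its difference was 0.22 (limma adjusted p 0.127) and with Wnt3a 0.10 (limma adjusted p 0.675). Without Untreated 1, the lowest array, the difference with both ligands was 0.25 (limma adjusted p 0.334). The call was also lost in limma refits without Untreated 3 (adjusted p 0.0547), Wnt3a 1 (0.0616), Wnt3a+Wnt5a 2 (0.0729) or Wnt3a+Wnt5a 3 (0.0656).

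IFIH1 encodes MDA5, a sensor of long double-stranded RNA. It read 9.08, 9.49 and 9.44 in untreated cells, 9.14, 9.34 and 9.47 with Wnt3a, 9.42, 9.48 and 9.59 with Wnt5a, and 9.49, 9.60 and 9.42 with both. Its groups overlapped, with Untreated 1 and Wnt3a 1, both on chip 2, at the bottom. The difference with both ligands was 0.32 against untreated cells (limma adjusted p 0.0816) and 0.34 against Wnt3a (limma adjusted p 0.0774). DDX58, now named RIGI, senses short RNA with 5′ triphosphates. It lay between 6.48 and 7.01, and its differences of 0.05 with Wnt3a, 0.15 with Wnt5a and 0.16 with both did not pass (limma adjusted p 0.876, 0.419 and 0.389).

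XAF1, which opposes the caspase inhibitor XIAP and is induced by interferon, differed most when both ligands were present. It read 10.56, 10.47 and 10.54 in untreated cells, 10.62, 10.52 and 10.67 with Wnt3a, 10.51, 10.77 and 10.80 with Wnt5a, and 11.02, 10.86 and 10.96 with both. The arrays with both ligands lay above the other 9, and the single-ligand groups overlapped untreated cells. XAF1 rose by 0.38 with both (1.30-fold; 95% interval 0.17 to 0.58; limma adjusted p 0.0324), and differed by 0.17 with Wnt5a (limma adjusted p 0.313) and 0.08 with Wnt3a (limma adjusted p 0.775). A second XAF1 probe gave 0.44 with both ligands (limma adjusted p 0.115). The XAF1 call was lost in limma refits without Untreated 1 (adjusted p 0.212), Untreated 2 (0.062), Wnt3a 1 (0.0723), Wnt3a 3 (0.0505), Wnt3a+Wnt5a 1 (0.0814) or Wnt3a+Wnt5a 3 (0.0796). It was also lost with the replicate number as a block beside the chip (0.0529) and with both probes averaged (0.0554).

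The other genes grouped with XAF1 are IFI6, IFI27, IFI35, IFI44 and IFI44L, and none passed. IFI6, a mitochondrial protein that delays apoptosis, lay between 14.40 and 14.59, and IFI27, a small membrane protein of the same family, between 13.27 and 13.47. IFI35 lay between 9.94 and 10.28. IFI44 and IFI44L, paralogs with antiviral activity, lay between 10.90 and 11.44 and between 7.78 and 8.36. Over the 6 genes with XAF1, differences ran from -0.02 to 0.17 with Wnt3a, from -0.13 to 0.17 with Wnt5a and from -0.14 to 0.38 with both ligands.

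The transcription factors of the response did not pass a test. STAT2 (11.15 to 11.40) and IRF9 (11.12 to 11.36) are the parts of ISGF3 on the list, IRF1 (11.11 to 11.66) is the factor induced by interferon gamma, and IRF7 (11.24 to 11.54) amplifies interferon production. Of these 4 genes, 0 passed in any comparison. Their differences ran from -0.03 to 0.15 with Wnt3a, from 0.01 to 0.11 with Wnt5a and from 0.01 to 0.16 with both. The largest with Wnt3a was that of IRF9, at 0.15 (limma adjusted p 0.322). All 9 treated arrays of IRF9, from 11.22 up, lay above its 3 untreated arrays, which reached 11.16.

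The oligoadenylate synthetases make the second messenger that activates RNase L. OAS1 lay between 9.20 and 9.71, OAS2 between 10.58 and 11.18, OAS3 between 9.71 and 10.00, and the catalytically inactive OASL between 8.03 and 8.37. The highest OAS1, OAS2, OAS3 and OASL values were all on Wnt3a 1, and none of the 4 genes passed. Differences over the 4 genes ran from 0.03 to 0.11 with Wnt3a, from 0.03 to 0.16 with Wnt5a and from -0.03 to 0.08 with both.

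Membrane restriction factors hold virus at the cell's membranes. IFITM1, IFITM2 and IFITM3 block fusion of virus with endosomes and plasma membrane; they are close paralogs, so their probes may share signal. IFITM1 lay between 13.79 and 14.07, IFITM2 between 14.50 and 14.70 and IFITM3 between 14.32 and 14.53. BST2, or tetherin, which holds budding virus at the cell surface, lay between 9.15 and 9.73. None passed in any comparison, and over the 5 genes with LY6E the differences ran from -0.06 to 0.12 with Wnt3a, from -0.13 to 0.11 with Wnt5a and from -0.26 to 0.01 with both.

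LY6E, a lipid-anchored protein that restricts coronavirus entry, read 12.35, 12.04 and 12.08 in untreated cells, 12.22, 12.05 and 12.002 with Wnt3a, 12.01, 12.05 and 12.002 with Wnt5a, and 11.97, 12.14 and 11.93 with both. Its groups overlapped, and Untreated 1 was the highest array. The difference with both ligands was -0.26 (95% interval -0.45 to -0.07; limma adjusted p 0.0886).

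Among the GTPases, MX1 (7.42 to 7.78) and MX2 (8.86 to 9.32) are dynamin-like proteins that trap viral nucleocapsids, and GBP1 (8.98 to 9.31) belongs to the guanylate-binding proteins induced mainly by interferon gamma. GBP1 had the lowest difference with Wnt5a of the 3, -0.19 (limma adjusted p 0.121). Every treated array of GBP1, in all 3 treated groups, read at most 9.16 and lay below the 3 untreated arrays, from 9.21 up. MX1 and MX2 differed by -0.04 and 0.00 with Wnt5a, and none of the 3 genes passed in any comparison.

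Other antiviral effectors did not pass either. ISG20, an exonuclease that degrades viral RNA, lay between 9.003 and 9.30. RSAD2, or viperin, which makes a chain-terminating nucleotide, lay between 10.62 and 11.01. TRIM22, a ubiquitin ligase of the tripartite motif family, read 8.27, 8.34 and 8.21 in untreated cells, 8.59, 8.26 and 8.39 with Wnt3a, 8.16, 8.45 and 8.26 with Wnt5a, and 8.25, 8.22 and 8.23 with both. The Wnt3a arrays were the only group wholly above the arrays with both ligands, which lay within 0.03 of each other. Its difference between both ligands and Wnt3a was -0.29 (limma adjusted p 0.0795).

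SP110, a nuclear body protein, had the lowest p of the 41 genes with Wnt3a. It read 10.95, 11.08 and 11.00 in untreated cells, 11.32, 11.14 and 11.18 with Wnt3a, 11.14, 11.15 and 11.07 with Wnt5a, and 11.13, 11.13 and 11.17 with both. The Wnt3a arrays lay above the untreated ones. SP110 differed by 0.21 with Wnt3a (95% interval 0.07 to 0.35), which did not pass in the main values (limma adjusted p 0.184) and did pass in the authors' log2 table.

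ISG15 is a ubiquitin-like protein that is attached to other proteins by HERC5 and removed by USP18, which also shuts off the interferon receptor. ISG15 lay between 12.19 and 12.86, HERC5 between 11.25 and 11.68 and USP18 between 5.45 and 6.12. The USP18 probe is named by a locus number in the deposited file and by USP18 in the platform's annotation, and a near-identical copy of the gene exists, so its reading is uncertain. Against untreated cells, the differences of the 3 genes ran from -0.02 to 0.17 with Wnt3a, from 0.12 to 0.15 with Wnt5a and from -0.20 to 0.00 with both, and none passed. Against Wnt5a alone the combination lay lower for all 3, by values from -0.33 to -0.13, and none of these passed.

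PARP9 and DTX3L form a complex that modifies ubiquitin and histones and enhances interferon signalling. PARP9 lay between 9.97 and 10.36. DTX3L read 7.87, 6.75 and 7.52 in untreated cells, 8.43, 7.14 and 7.24 with Wnt3a, 7.20, 7.68 and 6.64 with Wnt5a, and 8.05, 7.04 and 7.93 with both. Its range within each group was wide and all 4 groups overlapped. The chip 2 array was the highest of the 3 in each of the untreated, Wnt3a and Wnt5a groups. The SD left after group and chip means were removed was 0.411 for DTX3L, the highest of the 11057 genes tested. With the chip in the fit, its differences from untreated cells were 0.22 with Wnt3a, -0.21 with Wnt5a and -0.31 with both (limma adjusted p 0.816, 0.768 and 0.597). Without that term the last has the other sign, since the group means were 7.68 with both and 7.38 in untreated cells.

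Antigen processing was represented by 2 immunoproteasome subunits and the peptide transporter TAP1. PSMB8 lay between 11.60 and 11.98 and TAP1 between 13.51 and 13.70. PSMB9 read 10.68, 10.47 and 10.48 in untreated cells, 10.76, 10.62 and 10.55 with Wnt3a, 10.50, 10.65 and 10.43 with Wnt5a, and 10.49, 10.55 and 10.52 with both. The groups overlapped, and the chip 2 array was the highest of the 3 in each of the untreated, Wnt3a and Wnt5a groups. With the chip in the fit, PSMB9 differed by -0.25 between both ligands and Wnt3a (95% interval -0.39 to -0.11; limma adjusted p 0.0503), just outside the threshold.

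Setting the ligands against each other returned IFIT3. It was lower with Wnt3a than with Wnt5a by a log2 difference of -0.34 (95% interval -0.51 to -0.17; limma adjusted p 0.0218), the 1 gene called of 41, where 3.32% of all probes were lower and 5.9% were called in either direction. IFIT5 and IFIT1 differed by -0.27 each (limma adjusted p 0.0887 and 0.152). The IFIT3 call was lost in limma refits without Wnt3a 1 (adjusted p 0.103), Wnt3a 2 (0.0959), Wnt5a 2 (0.101) or Wnt5a 3 (0.113), and with its probes averaged the difference was -0.24 (0.0774). The 2 doses differ, so this compares the ligands as given.

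Of the listed genes, only IFIT3 was called in the main values when Wnt5a was added to Wnt3a. It was 0.36 higher with both ligands than with Wnt3a (95% interval 0.17 to 0.55; limma adjusted p 0.041), 1 of 41 genes, where 2.78% of all probes were higher and 4.61% were called in either direction. This call was lost in 11 of 25 alternative settings, and most clearly without Wnt3a 1 (limma adjusted p 0.304). Others were the losses in limma refits without Untreated 1 (adjusted p 0.0819), Untreated 2 (0.0547), Wnt3a 2 (0.0864), Wnt5a 3 (0.066), Wnt3a+Wnt5a 1 (0.0982) or Wnt3a+Wnt5a 3 (0.101), and with the replicate block beside the chip (0.0775), median scaling (0.058), probes averaged (0.0698) or no filter on dim probes (0.117). Some alternative settings called further genes in this comparison. PSMB9 and TRIM22 were called lower, and IFIH1, EIF2AK2 and XAF1 higher, without background correction. The same calls came in the authors' log2 table and with a trended robust variance prior. PSMB9 was also called lower with median scaling.

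Wnt3a on top of Wnt5a changed 0 of the 41 genes by limma, where 0.121% of all probes were called. At an unadjusted p under 0.05 this comparison gave 1 gene, XAF1, higher by 0.21 (limma adjusted p 0.563), where 8.85% of all probes passed. IFIT3 differed by 0.02 between the combination and Wnt5a (95% interval -0.17 to 0.21; limma adjusted p 0.97) and IFIT5 by -0.02 (95% interval -0.23 to 0.19; limma adjusted p 0.971). These intervals still allow differences of up to 0.21 and 0.23 in size.

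A test of whether the ligands add up, the difference made by Wnt3a beside Wnt5a minus that by Wnt3a alone, gave 0 of 41 genes in limma, as it did over all probes (0%). At an unadjusted p under 0.05, 2 genes were lower and 0 higher, PSMB9 at -0.23 and TRIM22 at -0.31, where 7.82% of all probes passed. The median was -0.08, with 11 of 41 genes above 0. The value was -0.04 for IFIT3 (95% interval -0.30 to 0.21), -0.16 for IFIT5 (-0.44 to 0.12), 0.03 for EIF2AK2 (-0.22 to 0.28) and 0.13 for XAF1 (-0.15 to 0.40). The limma F test over the 4 groups called 2 genes, IFIT3 (adjusted p 0.00741) and IFIT5 (adjusted p 0.022), where 8.8% of all probes were called, and 8 genes at an unadjusted p under 0.05.

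Single arrays moved the listed genes together. Averaged over the 41 genes, the deviation from each gene's mean was 0.116 on Wnt3a 1, where 29 genes were above their mean, 0.098 on Wnt3a+Wnt5a 1 with 33 above and 0.074 on Wnt5a 2 with 29 above. It was -0.107 on Wnt3a 2, where 8 genes were above their mean, -0.070 on Untreated 1 and -0.071 on Untreated 3. The other 6 arrays lay between -0.028 and 0.021. The median deviation over the 41 genes was also taken on each array. By group, these medians had a mean of -0.055 ± 0.030 in untreated cells and 0.014 ± 0.1001 with Wnt3a. They had a mean of 0.018 ± 0.044 with Wnt5a and 0.032 ± 0.038 with both (SD, n = 3). By the deviation averaged over the genes, the 2 most distant arrays were of the same group, Wnt3a, on different chips. The treated groups overlapped each other, and the Wnt3a arrays also overlapped the untreated ones. By the median, Untreated 2 (-0.0207) lay just above Wnt5a 3 (-0.0213), while the arrays with both ligands lay above all untreated arrays.

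Calls between the chips were near the share over all probes, but most listed genes read higher on chip 2. Their median difference, chip 2 minus chip 1, was 0.062, with 29 of 41 above 0. Over all genes the median was -0.002, with 49.1% above 0. The limma chip term called 0 of the 41 genes, where 0.74% of all probes were called, and gave 8 higher and 1 lower on chip 2 at an unadjusted p under 0.05, where 21.7% of all probes passed. DTX3L was higher on chip 2 by 0.91 (limma adjusted p 0.0662), OAS2 by 0.28 (0.0844), PARP9 by 0.21 (0.0864) and PSMB9 by 0.19 (0.0723), while IFIH1 was at -0.23 (0.119), all by limma. All 3 arrays with both ligands lay on chip 2 with 1 array of each other group. The size of each difference from the combination therefore depends on the chip term, and for some genes its sign does too. The mean of DTX3L was 7.68 with both ligands and 7.38 in untreated cells, while its fitted difference was -0.31. All 4 oligoadenylate synthetases had a higher mean with both ligands than in untreated cells, while 1 of their 4 fitted differences was above 0. The part of the chip in these results was not tested further than the values with and within it.

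After group and chip means were removed, the values of the 41 genes still went together over the 12 arrays. The median Pearson r over their 820 pairs was 0.247, with 12.3% of pairs above 0.7 and 31.8% below 0. Over all 61123096 pairs of tested genes the median was 0.0004, with 3.93% above 0.7. These correlations describe 12 arrays that every pair shares, along with their RNA, chip and normalization. The spread itself was ordinary: the median residual SD was 0.105 over the listed genes and 0.0998 over all genes, and 23 of the 41 lay above the latter.

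Within the list there were sets that went with each other and against another set. OAS2 and PARP9 had the highest correlation with the mean of the other listed genes, at 0.92 each, and 0.95 with one another. IFI35 and IFI44L followed at 0.82 and MX2 at 0.80. EIF2AK2, IFI44, IFIH1 and RSAD2 formed one set, with r of 0.96 between EIF2AK2 and IFI44, 0.95 between IFIH1 and IFI44 and 0.89 between IFI44 and RSAD2. IRF1, IRF7, ISG20 and DTX3L formed the other set, with r of 0.95 between IRF1 and IRF7, 0.93 between IRF7 and DTX3L and 0.92 between ISG20 and DTX3L. Other genes went with this set too, among them HERC5 (0.90 with ISG20) and BST2 (0.90 with IRF1). Between the 2 sets r was negative, from -0.64 for IFI44 and DTX3L to -0.27 for IFIH1 and ISG20. Over all pairs of tested genes the lower quartile was -0.31. The sets were picked from these same correlations.

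The genes that passed the tests were not those that went most with the list. The correlation with the mean of the other listed genes was 0.40 for IFIT3, 0.24 for IFIT5, 0.19 for EIF2AK2 and 0.18 for XAF1. IFIT3 went with XAF1 at 0.79 and with IFIT5 at 0.11. PSMB9 was the gene most opposed to the rest at -0.63, with r of -0.86 to XAF1 and -0.85 to IFIT3, and LY6E stood at -0.48.

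**Figure D5:**
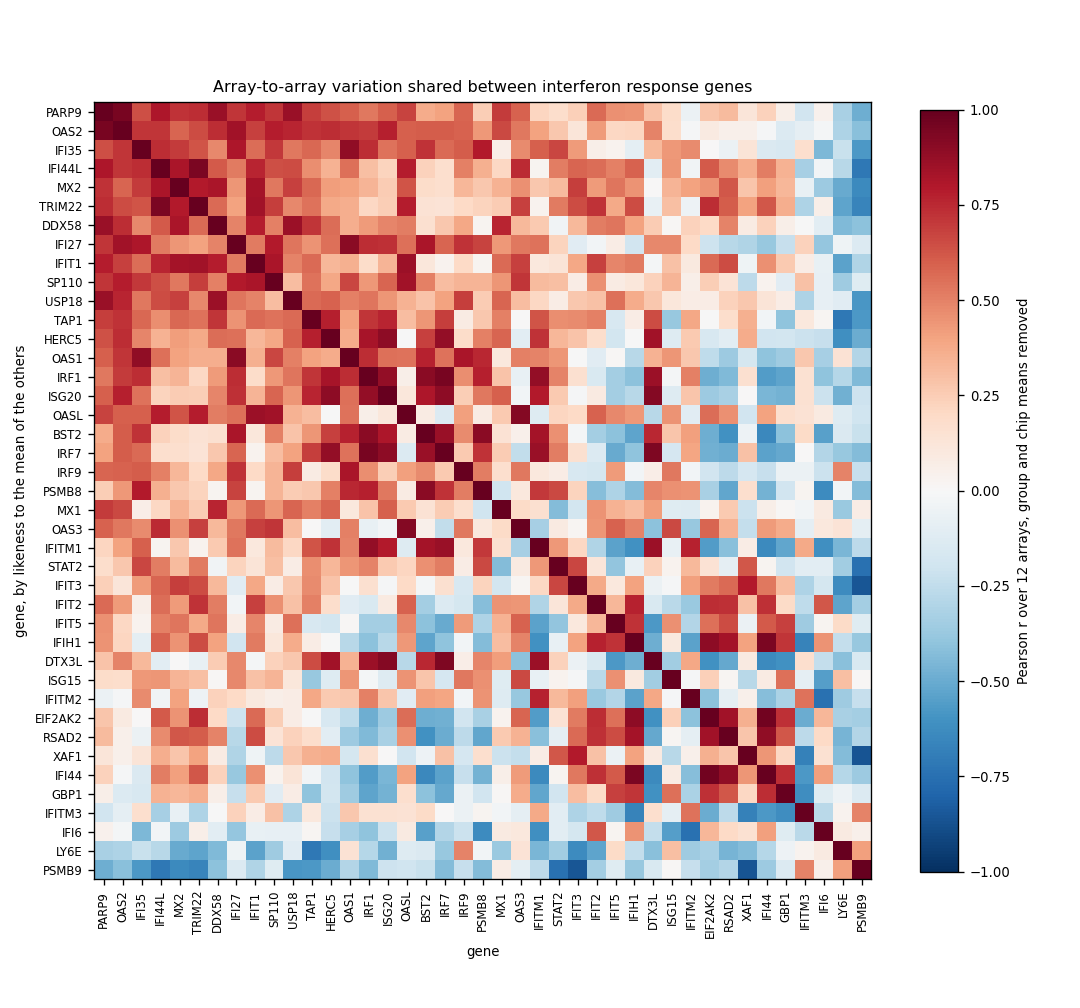
Each cell is the Pearson r of 2 interferon response genes over the 12 arrays after group and chip means were removed, with genes ordered by their correlation with the mean of the others. PARP9 and OAS2 lead the order at 0.92, most of the upper left is positive, and LY6E and PSMB9 at the end are negative to most others.

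The tested genes outside the list whose residuals were most like the mean of the 41 were LOC388588 (r 0.96), VPS33A (0.95), PTN (0.95), SHOC2 (0.95), TOR1A (0.95), MTHFD2 (0.94), TERF2 (0.94), SLC45A3 (0.93), GRINA (0.92) and DIP2A (0.92), over 12 arrays. PTN was detected on only 9 of them. None of the 10 is on the lists of interferon genes used here. Among 37 tested genes on a list of other interferon-induced genes the median r was 0.211, against 0.0106 over the 11016 genes outside the 41. TRAFD1, HERC6 and PARP14 of that list ranked 12, 23 and 36 of 11016.

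Upstream of the listed genes, most interferon genes were not detected. Of 19 interferon genes on the array, 3 were tested (IFNA8, IFNB1 and IFNL1), and 0 passed against untreated cells. IFNL1, a type III interferon, read 8.12, 8.28 and 8.02 in untreated cells, 7.93, 8.21 and 8.03 with Wnt3a, 8.48, 8.34 and 8.63 with Wnt5a, and 8.31, 8.65 and 8.36 with both. The arrays with Wnt5a lay above those without it. IFNL1 was higher with both ligands than with Wnt3a by 0.48 (limma adjusted p 0.0416) and lower with Wnt3a than with Wnt5a, at -0.42 (limma adjusted p 0.0305). In the authors' log2 table these were 0.31 and -0.28. These calls were lost in 12 and 6 of 24 alternative settings, among them the refits without Wnt3a 1 (limma adjusted p 0.315 and 0.135).

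Of 10 genes for interferon receptors and their kinases, 9 were tested, and with Wnt5a 2 of them rose and 0 fell. Over all tested probes, 2.92% were higher with Wnt5a and 5.25% were called in either direction. IFNGR2, a chain of the interferon gamma receptor, read 9.52, 9.46 and 9.53 in untreated cells, 9.40, 9.32 and 9.40 with Wnt3a, 9.80, 9.85 and 9.75 with Wnt5a, and 9.65, 9.71 and 9.72 with both. The 4 groups did not overlap, with Wnt5a highest and Wnt3a lowest. IFNGR2 rose by 0.30 with Wnt5a (limma adjusted p 0.00936; 0.0547 without Untreated 1). IL10RB, a chain shared by the receptors for IL-10 and type III interferon, rose by 0.23 with Wnt5a (limma adjusted p 0.0495), and that call was lost in 17 of 24 alternative settings, with an adjusted p of up to 0.172 (without Wnt5a 3). JAK2 differed by 0.39 with both ligands and did not pass (limma adjusted p 0.0839).

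Of 18 sensing adaptors, 14 were tested, and AIM2 was the only one called between groups. Over all tested probes, 5.25% were called with Wnt5a and 7.77% with both ligands. AIM2, a cytosolic DNA sensor that assembles an inflammasome, read 6.94, 7.07 and 7.40 in untreated cells, 6.76, 6.82 and 6.93 with Wnt3a, 7.93, 7.74 and 8.19 with Wnt5a, and 7.68, 7.83 and 7.97 with both. All 6 arrays with Wnt5a lay above all 6 without it. AIM2 rose by 0.82 with Wnt5a (1.76-fold; limma adjusted p 0.000702) and by 0.85 with both ligands (1.81-fold; limma adjusted p 0.00148), and was 1.15 higher with both than with Wnt3a (limma adjusted p 0.000448). All 4 AIM2 calls, with that between the ligands, held in all 24 alternative settings, with sizes of 0.43 and 0.44 for the first 2 in the authors' log2 table.

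All 14 genes on the list of negative regulators were tested. Of them, 1 was called with Wnt5a, 1 with both ligands, 1 between both ligands and Wnt3a, and 1 between Wnt3a and Wnt5a. Over all tested probes, 5.25%, 7.77%, 4.61% and 5.9% were called in these comparisons, so 1 gene of 14 differs little from these shares. SOCS3, which blocks JAK kinases, was above the detection threshold on all 3 untreated arrays, on 0 of 3 arrays with Wnt5a and on 1 of 3 with both. With the main background correction it was at least 1.52-fold lower with Wnt5a (limma adjusted p 0.00985; 0.0755 without Untreated 1 and 0.0596 without Wnt5a 2). That size depends on the correction: the log2 difference was -0.79 in the main values, -0.46 with an offset of 50, -0.33 without background correction and -0.18 in the authors' log2 table. UBA7 is on this list, but it is the enzyme that activates ISG15 for conjugation, so its rise is not that of an inhibitor. UBA7 rose by 0.36 with both ligands (limma adjusted p 0.0213). In limma refits its adjusted p was 0.194 without Untreated 1, and 0.0582 and 0.0698 without Wnt3a+Wnt5a 1 or 3. The phosphatases PTPN1, at -0.33 between both ligands and Wnt3a (limma adjusted p 0.049), and PTPN6, at -0.30 between Wnt3a and Wnt5a (limma adjusted p 0.0379), lost their calls in 16 and 10 of 24 alternative settings, with limma adjusted p of up to 0.391 (without Wnt3a 1) and 0.178 (without Wnt5a 3).

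Of 42 other interferon-induced genes, 37 were tested, and against untreated cells 0 passed with Wnt3a, 3 rose and 1 fell with Wnt5a, and 3 rose and 1 fell with both ligands. Over all tested probes, 1.52% were called with Wnt3a, 5.25% with Wnt5a (2.92% higher) and 7.77% with both (4.45% higher). A few genes of 37 thus differ little from these shares. Their median difference was 0.06 with Wnt5a and 0.05 with both. SAMD9L, an antiviral protein that restrains translation, read 7.39, 7.76 and 7.58 in untreated cells, 7.71, 7.67 and 7.98 with Wnt3a, 7.86, 8.03 and 8.23 with Wnt5a, and 8.03, 8.21 and 8.15 with both. Its Wnt5a and combination arrays lay above the untreated ones. SAMD9L rose by 0.46 with Wnt5a and by 0.64 with both (limma adjusted p 0.0331 and 0.0118; 0.177 and 0.179 without Untreated 1). In the authors' log2 table these differences were 0.27 and 0.37. The call with Wnt5a was also lost without Untreated 3 (limma adjusted p 0.104), Wnt5a 2 (0.163) or Wnt5a 3 (0.161).

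PNPT1, a mitochondrial RNA exonuclease, rose by 0.36 with Wnt5a and by 0.44 with both (limma adjusted p 0.00742 and 0.00509; the second 0.0545 without Untreated 1). With its 2 probes averaged these were 0.13 and 0.33 (limma adjusted p 0.468 and 0.0628). RNF213, a large ubiquitin ligase, rose by 0.34 with Wnt5a (limma adjusted p 0.0236). That call was lost in limma refits without Untreated 1 (adjusted p 0.144), Untreated 2 (0.0899), or Wnt5a 1, 2 or 3 (0.0508, 0.0577 and 0.112). ZC3HAV1, the zinc-finger antiviral protein, rose by 0.42 with both (limma adjusted p 0.029), and by 0.19 with its probes averaged (0.125). That call was lost in limma refits without Untreated 1 or 2 (adjusted p 0.15 and 0.055), Wnt3a 1 (0.069), or Wnt3a+Wnt5a 1 or 3 (0.0748 and 0.0857). WARS1, a tryptophanyl-tRNA synthetase that interferon gamma induces, fell with Wnt5a and with both, at -0.30 and -0.27, and lost these calls in 6 and 12 of 24 alternative settings, with limma adjusted p of up to 0.0882 (without Wnt5a 2) and 0.19 (without Untreated 1). GBP5 was 0.29 higher with Wnt3a than with Wnt5a and lost that call in 9 of 24, with a limma adjusted p of up to 0.137 (without Wnt3a 2). Of 18 antigen presentation genes, 16 were tested and 0 passed in any comparison, where at most 7.77% of all probes (both ligands against untreated cells) were called.

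The cells were checked against markers. Of 14 megakaryocyte markers, 11 were detected and PF4, PPBP and TREML1 were not, and the summed signal of the 14 ran from 32137 to 37901 in untreated cells, 34153 to 36311 with Wnt3a, 33305 to 36844 with Wnt5a and 30358 to 35024 with both. Markers of plasmacytoid dendritic cells, which make interferon, were detected for 2 of 9 genes, IL3RA and TCF4, with sums from 1013 to 1214 over all arrays. IL3RA was higher with Wnt5a and with both by 0.92 and 0.90 (0.22 each in the authors' log2 table), and its detection was on 1, 1, 3 and 3 arrays of the 4 groups. Monocyte markers were detected for 3 of 8 genes and lymphoid markers for 5 of 10, with sums from 931.5 to 1189 and from 2100 to 2746. CSF1R was at -0.62 with both ligands (-0.37 in the authors' log2 table) and CD2 at 0.52 with Wnt3a. The CD2 call was lost in 3 of 24 alternative settings (limma adjusted p up to 0.0726, without Wnt3a 1). Of the megakaryocyte markers, GP1BA was lower with Wnt5a and with both (-0.35 and -0.43), THBS1 was lower with Wnt3a and with both (-0.39 and -0.28), and CD9 was 0.31 higher with both than with Wnt3a, all called by limma. The THBS1 call with both ligands was lost in 15 of 24 alternative settings (limma adjusted p up to 0.115, without the filter on dim probes). The CD9 call was lost in 10 of 24 (limma adjusted p up to 0.34 with its probes averaged, and 0.134 without Wnt3a 1). Over all tested probes, 1.52% were called with Wnt3a, 5.25% with Wnt5a, 7.77% with both and 4.61% between both ligands and Wnt3a. The part of such differences in those of the interferon response genes was not tested.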

How the data were processed

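Gene expression in CHRF288-11 cells was measured on 12 arrays of 2 Illumina BeadChips, in 4 groups of 3. The authors deposited an intensity per probe, not normalized, and a detection value, a fraction near 1 for bright probes; 1 minus this fraction served as detection p. The authors also deposited a table on a log2 scale, used as an alternative; lumi is named in the submitters' processing notes, with its role not given in the sources used here. Intensities were corrected by normexp with negative controls inferred from the detection p (offset 16), then quantile normalized and logged (log2) with limma 3.58.1 in R 4.3.3. Tests covered the 14051 of 48803 probes whose detection score passed 0.99 on 3 or more arrays, of which 11775 were named by the platform annotation, 2274 only by the deposited file (STAT2 and IRF7 among them) and 2 had no single name. In limma, the 4 groups and the chip were fitted over all 12 arrays (7 residual and 5.04 prior degrees of freedom), with two-sided p-values adjusted by Benjamini-Hochberg over all tested probes. The scripts were tested on simulated data.

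Interferon response genes that passed a test, and those with the largest F up to 10, are given on every array. Outside them, the 10 genes most like their mean and the called genes of the lists are named. The members and lists were chosen with earlier results of these data known, so no test was run over a list. Alternatives covered the chip term, the replicate number as a block, background, scaling, filters, probes averaged, the variance prior and each array left out. One item is not reported here.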

Additional observations from a re-analysis of the deposited data

How the results depend on the processing

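The direction of each called gene held in all alternatives run. Shares in brackets are those called in either direction over all tested probes, or over all genes where probes were averaged. Against untreated cells, Wnt5a gave 4 of the 41 genes without background correction (7.12%). It gave 5 in the authors' log2 table (6.65%) and 4 with a trended robust variance prior (7.16%). Both ligands gave 7 without background correction (10.2%), 7 with an offset of 50 (9.5%), 1 without the filter on dim probes (1.07%) and 7 with the trended prior (10.3%). With Wnt3a the authors' table gave 1 (2.46%). Both ligands against Wnt3a gave 6 without background correction (7.89%), 5 with an offset of 50 (6.79%) and 6 in the authors' table (7.05%). That comparison gave 2 among probes detected on all 12 arrays (6.76%), 0 without the filter (0.551%), 0 with probes averaged (5.2%) and 6 with the trended prior (7.94%). Wnt3a against Wnt5a gave 2 without background correction (7.72%), 0 without the filter (1.06%), 0 with probes averaged (6.75%) and 2 with the trended prior (7.68%). The F test gave 7, 6, 5, 1 and 6 without background correction, with an offset of 50, in the authors' table, without the filter and with the trended prior. The chip term gave 5 without background correction (5.33%), 4 with an offset of 50 (3.82%), 4 in the authors' table (3.92%) and 5 with the trended prior (5.52%). It gave 1 each with median scaling (2.64%) and among probes detected on all arrays (2.81%). Apart from the larger number of probes tested without the filter, the cause was not tested. With both ligands, the genes added without background correction were IFIH1 and IFIT1 as higher and LY6E as lower.

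Over 18 pairs of same-numbered arrays, the correlation of deviations from the group means ran from -0.407 to 0.406, with 9 above 0.1. Pairs numbered 2 were all positive (0.056 to 0.295), but not every pair exceeded 0.1, so the arrays were not treated as paired. With the replicate block beside the chip, both ligands against Wnt3a gave 0 genes (3.95% of all probes) and the median correlation between members was 0.375. With the replicate block in place of the chip, that comparison gave 2 genes (3.95% of all probes) and the F test 4. The median difference with both ligands was then 0.0782, as without a chip term.

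Within chips, the median difference of the 41 genes with Wnt3a was -0.000608 on chip 1 and 0.183 on chip 2. On chip 2 it was 0.156 with Wnt5a, 0.0832 with both ligands and 0.0689 for Wnt3a against Wnt5a. Chip 2 held 1 array each of the untreated, Wnt3a and Wnt5a groups. Its values against untreated cells thus rest on Untreated 1, where the listed genes deviated by -0.070 on average. With 1 array left out at a time, the median ran from 0.000599 to 0.116 with Wnt3a, from 0.028 to 0.11 with Wnt5a, from -0.0685 to 0.0549 with both, from -0.0673 to 0.0382 for both against Wnt3a and from -0.0685 to 0.0416 for Wnt3a against Wnt5a. Called genes then numbered 0 to 3 with Wnt5a (2.62% to 5.4% of all probes), 0 to 6 with both (1.69% to 9.37%) and 0 to 4 for both against Wnt3a (0.612% to 6.28%). They numbered 0 to 1 for Wnt3a against Wnt5a (3% to 6.31%), 1 to 5 in the F test and 0 to 1 for the chip (0% to 4.87%). The counts of 0 against untreated cells came without Untreated 1, the only untreated array on chip 2, and, with Wnt5a, also without Wnt5a 2. The median correlation between members ran from 0.157 to 0.307. The size of differences near background, such as those of IFIT5 and SOCS3, depends on the background correction.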
